A study of Mus musculus with 4 samples.

Results

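Lmx1b, Tcf21, Foxc1 and Foxc2 are transcription factor genes of the podocyte, the epithelial cell of the glomerular filter. They were chosen by name, 4 of the 21887 protein-coding genes of the annotation, and WT1 occupancy around them was read from every deposited peak whose midpoint lay in the gene or within 100 kb of it. That gave 23 of the 17234 regions found in both WT1 samples, 36 of the 53132 peaks of WT1 replicate 1 and 71 of the 57641 peaks of WT1 replicate 2. The material was chromatin of microdissected whole kidneys of wildtype mouse embryos at E18.5, of a mixed background bred from C57Bl6 and B6DBA/F1, precipitated in 2 samples with a WT1 antibody. The study also made 2 IgG control samples from the same tissue, which were not analysed here. The 2 experiments are described as independent, and the sources used here do not give the number of embryos behind each. A whole kidney of this age holds nephron progenitors and forming podocytes, both of which carry WT1, so the cell type behind a peak cannot be told apart. The files hold no expression values, and the labelled tissue could not be checked against its markers.

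WT1 is a zinc-finger transcription factor that binds GC-rich DNA and is kept on in podocytes after they leave the cell cycle. The 4 genes encode other regulators of the same cell. LMX1B is a LIM homeodomain protein that is mutated in nail-patella syndrome, in which the glomerular basement membrane is abnormal. TCF21 is a basic helix-loop-helix protein required in mice for glomeruli to mature, and FOXC1 and FOXC2 are closely related forkhead proteins that act early in podocyte development.

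Each of the 4 genes had at least 1 reproducible WT1 region in its window, and none had a peak of either replicate on the start site where that site was known. For Foxc2 the site was not known, but no peak lay in the gene, and the nearest, of replicate 2, was 4.06 kb away. Among all start sites 3.74% had a reproducible region within 1 kb. Of the 23 regions, 8 were reproducible, which here means a deposited value, read as an irreproducible discovery rate (IDR, the estimated share of irreproducible regions among those ranked at least as high), of 0.05 or lower. Over all 17234 regions 25.6% passed this threshold. Foxc2 had 3 reproducible regions, Lmx1b and Tcf21 had 2 each, and Foxc1 had 1. All 8 lay at least 5.79 kb from either end of the gene they are listed under. A reproducible region within 100 kb was found at 38.1% of all protein-coding genes. Within 10 kb, 3 of the 4 genes had one, against 13.6% of all protein-coding genes, and Tcf21 was the exception. At Foxc1 and Foxc2 these near regions were closer to another gene, Gmds and Foxl1. All 4 had an overlap region of any IDR within 10 kb, against 33.6% of protein-coding genes. With 4 genes chosen by name and 2 samples of 1 kind, these counts are a description and were not tested.

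**Figure D1:**
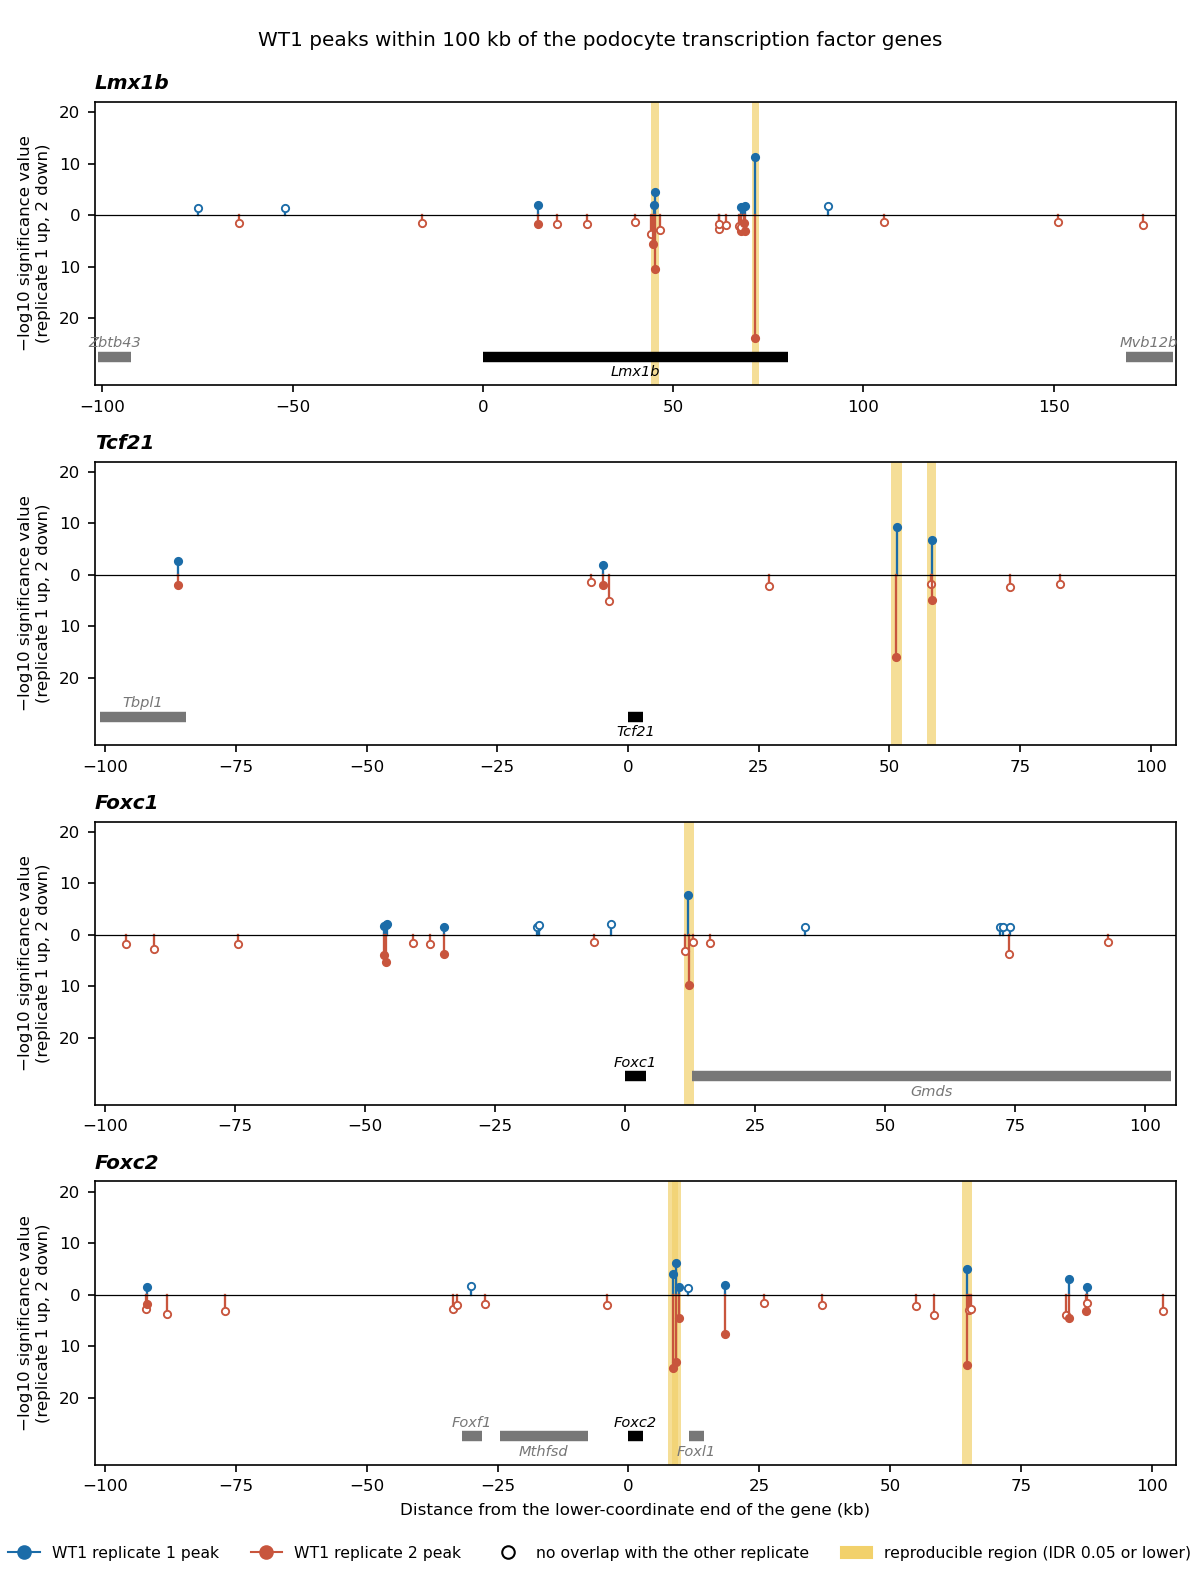
Peaks of WT1 replicate 1 (upward, blue) and replicate 2 (downward, red) around each gene, with the distance from its lower-coordinate end in kb on the horizontal axis and the −log10 significance value on the vertical axis. Filled heads overlap a peak of the other replicate, open heads do not, yellow bands (widened for visibility) are the 8 reproducible regions, and bars are protein-coding genes; the strongest signals lie inside Lmx1b, 48.5 kb beyond the start of Tcf21, next to Gmds at Foxc1, and between Foxc2 and Foxl1.

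The DNA just before the start sites is shown first, because the peaks were found elsewhere. RefSeq promoter entries on GRCm38.p6, the assembly behind mm10, were matched for 3 of the 4 genes, and Foxc2 had no entry in the table used. Each sequence below is the 250 bases before the annotated start, 5′ to 3′. Capitals mark matches, on either strand, to GNGNGGGNG, a loose form of the GC-rich site of WT1 and the EGR factors. The Lmx1b promoter lies at chr2:33641099-33641348 on the minus strand, that of Tcf21 at chr10:22820144-22820393 on the minus strand and that of Foxc1 at chr13:31806396-31806645 on the plus strand. The start used for Lmx1b is 33641098, while the gene entry reaches to 33641208. Part of the Lmx1b sequence therefore lies within the gene as annotated.
Lmx1b: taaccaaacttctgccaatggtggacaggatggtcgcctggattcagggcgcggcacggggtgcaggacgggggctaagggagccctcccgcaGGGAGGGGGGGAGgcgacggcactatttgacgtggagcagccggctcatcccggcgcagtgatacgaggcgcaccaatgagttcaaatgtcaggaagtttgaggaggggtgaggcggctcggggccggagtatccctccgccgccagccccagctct
Tcf21: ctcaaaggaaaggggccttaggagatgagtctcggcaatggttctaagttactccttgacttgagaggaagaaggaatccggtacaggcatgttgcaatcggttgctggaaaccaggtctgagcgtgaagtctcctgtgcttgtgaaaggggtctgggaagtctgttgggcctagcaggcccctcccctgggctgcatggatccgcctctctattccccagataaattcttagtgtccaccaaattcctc
Foxc1: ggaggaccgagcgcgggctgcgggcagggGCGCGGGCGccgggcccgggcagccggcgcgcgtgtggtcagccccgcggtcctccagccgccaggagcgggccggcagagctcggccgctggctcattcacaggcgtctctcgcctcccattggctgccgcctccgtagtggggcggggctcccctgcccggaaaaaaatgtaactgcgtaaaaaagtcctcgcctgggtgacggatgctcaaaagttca
None of these stretches was touched by a peak of replicate 1, a peak of replicate 2 or a region of the overlap table. Among all 32851 promoter entries 5.15% were touched by a replicate 1 peak, 8.85% by a replicate 2 peak and 1.91% by a reproducible region. The Lmx1b promoter held 3 overlapping matches, which merge into 1 run of capitals, Foxc1 held 1 and Tcf21 held 0. Of the 626 promoters touched by a reproducible region 71.2% held at least 1 match, against 35.8% of all promoters. The stricter sequences GCGGGGGCG and GCGTGGGAG, which are special cases of the loose one, matched none of the 3. They were present in 10.7% and 4.63% of the promoters touched by a reproducible region, against 2.57% and 0.405% of all promoters. A match is a description of these letters and no measurement of binding.

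For contrast, the promoter of Klf6, a zinc-finger transcription factor gene of podocytes, lay wholly under a reproducible region (IDR 0.00177). It is at chr13:5861239-5861488 on the plus strand, and it was chosen for display after its value was seen. This was the less common case. Of the 21 genes with a promoter entry in the gene lists further below, 2 had it under a reproducible region, Klf6 among them.
Klf6: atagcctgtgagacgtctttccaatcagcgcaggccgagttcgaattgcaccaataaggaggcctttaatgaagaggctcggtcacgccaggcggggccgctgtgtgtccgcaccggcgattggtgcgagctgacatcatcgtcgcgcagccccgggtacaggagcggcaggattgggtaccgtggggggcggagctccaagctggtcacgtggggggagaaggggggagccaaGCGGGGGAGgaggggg
In the windows of the 4 genes, the one region found in both replicates that covered more than 12 bases of a promoter entry lay at the start of the noncoding gene 5033426O07Rik, 84.7 kb beyond Foxc2. Its IDR was 0.442, so it was not reproducible. The 104 bases of that entry covered by both replicates are at chr8:121203643-121203746, read on the minus strand, and they held 2 overlapping matches of the loose site.
5033426O07Rik: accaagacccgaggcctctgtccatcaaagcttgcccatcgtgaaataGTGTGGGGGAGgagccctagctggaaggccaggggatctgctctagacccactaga

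Base composition and enzyme sites are given here beside the absence of peaks on the 3 promoters. The GC content was 65.2% for Lmx1b, 52.4% for Tcf21 and 70.8% for Foxc1, against a median of 52.4% over all promoters. The library protocol in the labels names a digest by MseI together with either AluI or HaeIII. The 250 bases held 1 AluI site (AGCT) and 0 MseI sites (TTAA) at Lmx1b, 0 and 0 at Tcf21, and 1 and 0 at Foxc1. The median over all promoters was 2 sites of AluI and MseI together, and 14.8% had 0. HaeIII sites (GGCC) numbered 1 at Lmx1b, 3 at Tcf21 and 3 at Foxc1, against a median of 1. Peak edges lay at AluI and MseI cut positions more often than positions 10 bp before them did. Within promoter entries, 22.8% of the edges of replicate 1 peaks lay at the cut position of an AluI site and 6.27% at that of an MseI site. In replicate 2 these shares were 16.5% and 5.58%. At positions 10 bp before each edge they were 0.268% and 0.107% in replicate 1, and 0.127% and 0.0317% in replicate 2. HaeIII sites stood at 0.536% of edges in replicate 1 and 1.11% in replicate 2, against 0.428% and 0.730% at 10 bp before. A promoter without a peak was the common case, since 5.15% of all entries were touched in replicate 1 and 8.85% in replicate 2. The absence at 3 promoters therefore does not set these genes apart. Any part of site density in where promoter peaks lay was not tested.

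Lmx1b carried the strongest of the 8 regions and was the only gene of the 4 with regions inside it. The gene (chromosome 2, 33560965 to 33641208, minus strand) is 80.2 kb long, and all 7 of its overlap regions fell within it. The strongest lay 8.48 kb downstream of the start site, at chromosome 2, 33632409 to 33632818. Its significance value, the authors' own p-value or q-value per peak, was 4.78e-12 in replicate 1 and 1.56e-24 in replicate 2. Those were ranks 1021 of 53132 and 936 of 57641, and its IDR of 1.41e-05 was rank 764 of 17234. Both replicates placed the lower edge on the same base. This was the lowest value of each replicate anywhere in the 4 windows.

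The second reproducible region of Lmx1b lay 34.8 kb downstream of the start, at 33605986 to 33606575. It was 590 bp wide, the widest of the 8, with values of 3.55e-05 and 3e-11 in replicates 1 and 2 and an IDR of 0.00264. Directly below it, 120 bp away, a narrower region had values of 0.0136 and 2.41e-06 and an IDR of 0.316. Replicate 2 alone added peaks on both sides of this pair, at 33605125 to 33605380 (0.000234) and 33607549 to 33607682 (0.00122). Replicate 1 had no peak at either place.

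Between these, 11.3 to 12.4 kb downstream of the start of Lmx1b, lay a cluster of 3 overlap regions, with IDR values of 0.138, 0.259 and 0.193. In replicate 1 their values were 0.0314, 0.0314 and 0.0215, and replicate 2 gave 0.000959, 0.0298 and 0.000844. The remaining region, 65.6 kb downstream of the start, had 0.0118 and 0.0193 and an IDR of 0.4. Of the replicate peaks in the Lmx1b window, 7 of 10 in replicate 1 and 17 of 22 in replicate 2 were inside the gene. The 3 peaks of replicate 1 outside the gene and the 5 of replicate 2 were all unshared. Whether the regions lie in exons or introns was not determined here.

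Of the 4 genes, Tcf21 had the greatest distance to its nearest reproducible region. It is a short gene of 2.88 kb (chromosome 10, 22817263 to 22820143, minus strand), and both regions lay upstream of its start, at 48.5 and 55.2 kb. The nearer one, at 22868402 to 22868798, had values of 4.88e-10 in replicate 1 and 9.87e-17 in replicate 2 and an IDR of 1.16e-04. The farther one, at 22875257 to 22875438, had 1.69e-07 and 1.48e-05 and an IDR of 0.0163. It was the only one of the 8 with the smaller value in replicate 1. No other protein-coding gene end was closer to either region than that of Tcf21, and the other protein-coding gene of the window, Tbpl1, was 136 kb from the nearer one.

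Closer to Tcf21 the signal was weak or rested on 1 replicate. An overlap region 7.62 kb downstream of the start (22812461 to 22812587) had identical edges in both replicates and values of 0.0106 and 0.0112, and its IDR was 0.307. Replicate 2 alone had a peak 6.49 kb downstream of the start, at 22813533 to 22813771, with a value of 7.81e-06. That is the lowest value of any unshared peak in the 4 windows. It falls inside the noncoding gene Gm10824, which spans Tcf21. The fourth overlap region lay inside Tbpl1, which encodes a TBP-like protein, with values of 0.00176 and 0.0118 and an IDR of 0.335. All 4 replicate 1 peaks of the window were shared, against 4 of the 10 in replicate 2.

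Foxc1 had 1 reproducible region, and another gene was nearer to it. Foxc1 is 3.99 kb long (chromosome 13, 31806646 to 31810635, plus strand). The region, at 31818672 to 31819004, lay 8.2 kb beyond its 3′ end and 12.2 kb downstream of its start. Its values were 2.21e-08 in replicate 1 and 2.07e-10 in replicate 2, with an IDR of 0.00113. The lower-coordinate end of Gmds, an enzyme gene of GDP-fucose synthesis, was 745 bp away, so the region cannot be assigned to Foxc1 over Gmds by position. Gmds is on the minus strand, and this is its 3′ end. Its start is on the far side of the gene.

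On the upstream side, Foxc1 had 3 overlap regions that did not pass. A pair separated by 16 bp lay 46.3 and 45.9 kb upstream of the start, with values of 0.0215 and 0.00893 in replicate 1 and 0.000135 and 4.71e-06 in replicate 2. The other, 34.8 kb upstream, had identical edges in both replicates, with 0.0314 in replicate 1 and 0.000215 in replicate 2. Their IDR values were 0.247, 0.16 and 0.288. The peak nearest the start in replicate 1 was 2.71 kb upstream (31803850 to 31804020, value 0.00824), and replicate 2 had none there. Its own nearest was 6.08 kb upstream with a value of 0.0376. Foxc1 had the largest number of unshared replicate 1 peaks of the 4 genes, 7 of 12, and in replicate 2 the number was 11 of 15.

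Foxc2 had the most regions, all 3 of the reproducible ones on its higher-coordinate side. The gene is 2.73 kb long (chromosome 8, 121116171 to 121118895) and stands among the forkhead genes Foxf1 and Foxl1. A pair of reproducible regions lay between Foxc2 and Foxl1, separated by 351 bp. With this pair counted once, Foxc2 had 2 reproducible regions, as many as Lmx1b and Tcf21. The first, at 121124480 to 121124897, was 5.79 kb from Foxc2 and 3 kb from Foxl1, with values of 1.02e-04 in replicate 1 and 5.84e-15 in replicate 2 and an IDR of 0.00444. The second, at 121125249 to 121125413, was 6.44 kb from Foxc2 and 2.35 kb from Foxl1, with 6.24e-07 and 8.01e-14 and an IDR of 0.00119. Both edges of the second were the same base in both replicates. Both regions were closer to Foxl1 than to Foxc2. Foxl1 encodes a forkhead factor of gut and other mesenchyme.

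A weaker overlap region continued this cluster 171 bp farther on, with 0.0261 in replicate 1 and 3.64e-05 in replicate 2 and an IDR of 0.255. The last reproducible region was 62 kb beyond Foxc2, at 121180695 to 121181127, inside the noncoding gene Gm42046. Its values were 8.15e-06 and 2.38e-14 and its IDR 0.00212. Foxl1 was again the nearest protein-coding gene, at 50.3 kb. A region at 121200246 to 121200540 had 8.7e-04 and 3.07e-05 and an IDR of 0.0519, just outside the threshold. Among the regions that passed, the highest IDR was the 0.0163 at Tcf21. On the other side of Foxc2, toward Foxf1 and Mthfsd, the window held 1 overlap region, 92 kb away, with an IDR of 0.205.

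Other peaks in the Foxc2 window differed between the replicates. Beyond Foxl1, a region at 121134542 to 121134892 had 2.27e-08 in replicate 2 and 0.0157 in replicate 1. Its IDR of 0.448 was the highest of the 23, although its replicate 2 value was rank 3900 of 57641. Just before the start of Fendrr, a long noncoding RNA gene beside Foxf1, only replicate 2 had a peak (0.00867). Replicate 1 had a peak inside Foxf1 (0.0164) where replicate 2 had none.

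Unshared peaks had larger significance values than shared ones in the median. In the 4 windows 24 of 36 replicate 1 peaks overlapped a replicate 2 peak (66.7%, exact 95% interval 49 to 81.4), against 34.1% over the whole list. In replicate 2 it was 23 of 71 peaks (32.4%, 21.8 to 44.5), against 30.8% over the whole list. With both lists limited to peaks with a value of 0.01 or lower, the share was 10 of 12 (83.3%) in replicate 1, against 56.4% of that list. In replicate 2 it was 10 of 41 (24.4%), against 31.4%, so in replicate 2 the share was then below that of its list. The intervals cover counting error over peaks only, and neighbouring peaks are not independent. The median significance value of shared peaks was 0.0112 in replicate 1 and 3.07e-05 in replicate 2, and of unshared peaks 0.0333 and 0.0116. Over the whole lists the difference had the same direction, with 0.00938 and 0.00122 for shared peaks and 0.0267 and 0.0161 for unshared ones. Replicate 2 gave the smaller value at 19 of the 23 regions (82.6%) and at 13002 of the 17234 regions of the table (75.4%). At the 8 reproducible regions it did so in 7.

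**Figure D2:**
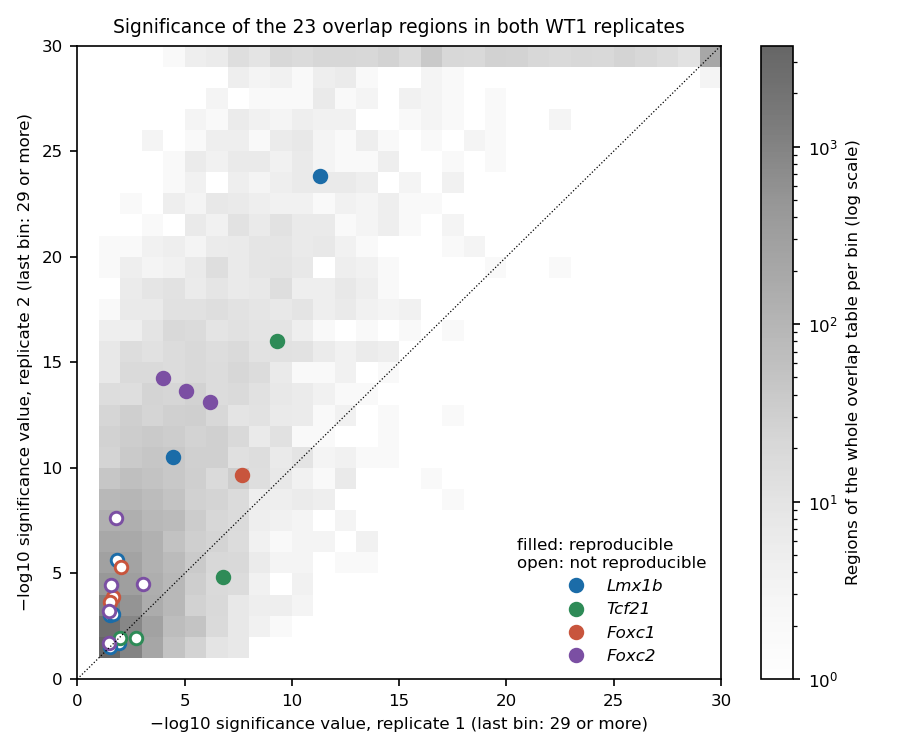
Each circle is 1 of the 23 overlap regions, with the −log10 significance value of replicate 1 on the horizontal and of replicate 2 on the vertical axis, over the density of all 17234 regions in grey (log scale). The 8 filled circles are the reproducible regions, and 19 of the 23 circles lie above the dotted line of equal values.

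The IDR did not follow the listed significance values strictly. Inside Lmx1b, a region with 0.0314 and 0.0298 in replicates 1 and 2 had an IDR of 0.259, lower than the 0.316 of the region with 0.0136 and 2.41e-06. The quantity by which the authors ranked peaks for the IDR is not stated in the sources used here. The reproducible regions were 165 to 590 bp wide with a median of 404 bp, and the other 15 were 100 to 400 bp wide with a median of 276 bp. Over the whole table these medians were 372 and 197 bp. The lower edge was the same base in both replicates at 7 of the 23 regions and the upper edge at 9, with both edges identical at 3. These counts were not made over the whole table. Within promoter entries, peak edges lay at AluI and MseI cut positions more often than positions 10 bp before them did. The part of cut sites in shared edges was not tested.

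Set beside all protein-coding genes, the 4 genes ranged from a common to an uncommon number of regions. At least 3 reproducible regions, as at Foxc2, were present at 6.58% of genes, at least 2 at 15.9% and at least 1 at 38.1%. For all overlap regions, the 8 of Foxc2 were reached by 4.39% of genes, the 7 of Lmx1b by 6.94% and the 4 of Tcf21 and of Foxc1 by 24.2%. The medians over all genes were 0 reproducible and 2 overlap regions. At least 1 overlap region was present at 71.6% of genes.

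The replicate lists gave a different order. Foxc1 had the most replicate 1 peaks, 12, a number reached by 9.72% of genes, followed by Lmx1b and Foxc2 with 10 (17.2%) and Tcf21 with 4 (65.2%). In replicate 2, Foxc2 had 24 (2.64%), Lmx1b 22 (3.85%), Foxc1 15 (13.8%) and Tcf21 10 (32.9%). The medians over all genes were 5 and 7 peaks. At least 1 peak within 100 kb was present at 92.5% of genes in replicate 1 and 89.8% in replicate 2. Long genes have longer windows, and the window of Lmx1b spanned 280 kb against 203 to 204 kb for the other genes.

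**Figure D3:**
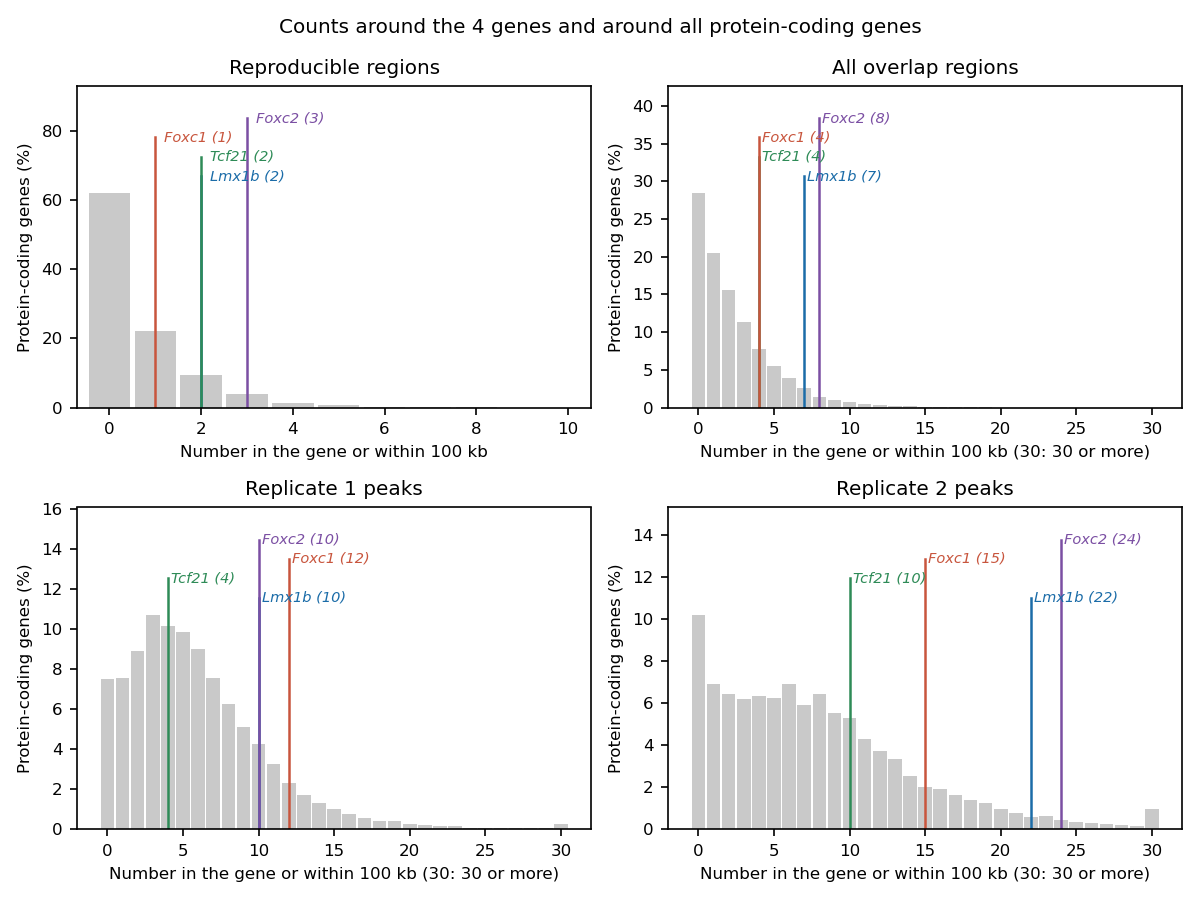
Grey bars give the share of 21887 protein-coding genes with each number of reproducible regions, overlap regions, replicate 1 peaks or replicate 2 peaks in the gene or within 100 kb. Coloured lines mark the 4 genes with their numbers in brackets; in the first panel Foxc2 stands at 3, Lmx1b and Tcf21 at 2 and Foxc1 at 1.

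By distance, Lmx1b held its nearest reproducible region inside the gene, as did 7.95% of protein-coding genes. For Foxc2 the nearest was 5.79 kb away, and 12.1% of genes had one as near. For Foxc1 it was 8.2 kb (13%) and for Tcf21 48.5 kb (25.7%). The median over all genes was 167 kb. Measured from the start site, the distances were 8.48 kb for Lmx1b, 12.2 kb for Foxc1 and 48.5 kb for Tcf21, which 6.73%, 7.96% and 20% of 17492 start sites reached. A reproducible region within 1 kb of the start was present at 3.74% of start sites and at none of these 3.

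Other transcription factors and cofactors of podocytes were counted by the same rule from a list of 13 genes. A reproducible region in the gene or within 10 kb was present at 3 of the 4 genes above, at 7 of these 13 and at 13.6% of all protein-coding genes. The lowest IDR was at Wt1 itself (4.99e-06), in a region that overlapped the gene and had its midpoint 0.0955 kb outside it. Zhx2, a zinc-finger and homeodomain repressor, had 5 inside or near the gene, the lowest at 2.11e-05. Foxd1, a forkhead factor of renal stroma and early podocytes, had 2, the nearer at 2.31 kb (9.45e-04). The 10 kb window held no reproducible region at Foxd2, Yap1, Klf15, Paxip1 and the bHLH partner genes Tcf3 and Tcf12. By midpoint, the nearest region of Zhx2, Tead1, Ldb1 and Nfat5 was inside the gene, as at Lmx1b. The midpoint at Wt1 and at Klf6 was within 1 kb outside the gene, and both of these regions overlapped it.

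A list of 11 genes, drawn up as podocyte genes regulated by the 4 factors or altered in their mutants, was counted next. It gave 5 with a reproducible region by the same rule (45.5%), against 13.6% of all protein-coding genes. Neither the link of each gene to the 4 factors nor its expression in podocytes rather than other kidney cells was checked here. Bmp7, Nphs1, Gas1 and Synpo had the lowest IDR values, 3.43e-07, 5.23e-07, 3.13e-06 and 7.2e-06. Col4a3 and Col4a4, basement membrane collagen genes that depend on LMX1B in mice, had overlap regions only, the lowest at IDR 0.167 and 0.188. Cd2ap had 1 overlap region, at IDR 0.469.

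Relatives of the 4 genes were counted from a list of 9, the forkhead neighbours and LIM homeobox and bHLH relatives. Of these, 1 (11.1%) had a reproducible region in the gene or within 10 kb, near the 13.6% of all protein-coding genes. Within 100 kb it was 6 of the 9, against 38.1% of all protein-coding genes. These 6 genes were not separate places. Foxf1 and Foxl1 counted the same reproducible regions as Foxc2, and Foxf2 and Foxq1 counted a single region between them. The gene with a reproducible region within 10 kb was Foxl1, through the same pair of regions that lies next to Foxc2. Lmx1a, the paralogue of Lmx1b, had 3 overlap regions within 10 kb and its nearest reproducible region 80.7 kb away. Foxf2 and Foxq1, which lie near Foxc1, had the same nearest reproducible region, at 20.8 and 91.2 kb. These lists were drawn up with earlier results of these data known, and none was tested.

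**Figure D4:**
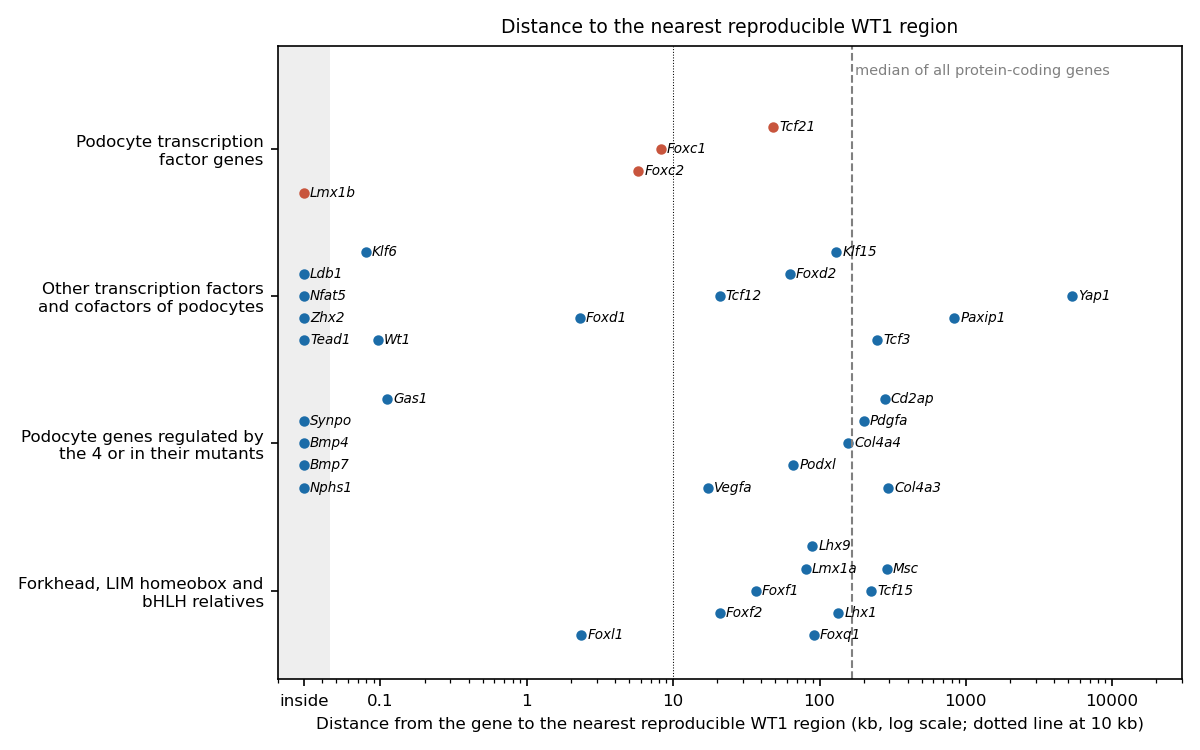
Distance in kb from each gene to its nearest reproducible WT1 region on a log axis, with genes that hold one placed in the grey band at the left. Lmx1b holds one, Foxc2 and Foxc1 lie left of the dotted line at 10 kb and Tcf21 right of it, and the dashed line is the median of all protein-coding genes, 167 kb.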

How the data were processed

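WT1 and IgG ChIP-seq were made from mouse embryonic kidneys, with 2 samples each; the WT1 samples' peak lists and a table of regions common to them were used. The genome build is mm10, per the submitters' processing notes; aligner, peak caller and use of IgG reads are not stated in the sources used here. The deposited value of each peak runs from 0 to 0.0499 and is read as a p-value or a q-value with a limit of 0.05. The deposited value of each region is read as a global IDR, a q-value-like rate. Its product with the rank rose in steps that never shrank by more than 1e-06, as for a running mean of sorted values. This alone does not settle the reading. Each of the 17234 regions equalled the union of the peaks it overlapped. The files used hold no read counts, so depth is unknown. Positions are 1-based. Peaks were placed by midpoint around RefSeq genes of GRCm38.p6, and peaks overlapping by at least 1 bp were called shared. Shares have exact Clopper-Pearson intervals. Analyses used Python 3.11.15, pandas 2.3.3 and scipy 1.17.1, and the counting functions were tested on simulated data. Members and lists were chosen with earlier results of these data known. Genes named beyond the 4 are those with an end nearest to a reproducible region in a window and up to 4 per list by lowest IDR; other listed genes were named after their values were seen. Results for some listed genes are left out of the lists and not reported here. No row holds a sample of another series. Alternatives were IDR thresholds of 0.01 and 0.1, windows of 10 and 50 kb, placement by any overlap, merging within 500 bp, an overlap of 50% of the shorter peak, peak values of 0.01 or lower, and each replicate alone.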

Additional observations from a re-analysis of the deposited data

How the results depend on the processing

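With an IDR of 0.01 or 0.1 the 4 windows held 7 or 9 reproducible regions in place of 8. With regions under 500 bp apart counted once they held 7, and Foxc2 had 2 in place of 3, no more than Lmx1b and Tcf21. Counting instead the 4411 peaks with the smallest values of a single replicate, the windows held 8 such peaks from either (range 8 to 8), at all 4 genes. The places differed without replicate 1: Foxc2 had 4 in place of 3, through the replicate 2 peak of 2.27e-08 in the region of IDR 0.448, and Tcf21 had 1 in place of 2. With a 10 kb window 5 reproducible regions at 3 genes and 12 overlap regions in place of 23 remained, since fewer positions are searched. Shared peaks, here and below the sum over both replicate lists, fell from 47 to 24. With peak values of 0.01 or lower 20 shared peaks remained, since fewer peaks enter, and the replicate 2 share fell below that of its list (24.4% against 31.4%). Tcf21 depended most on the settings: its count of 2 became 1 at an IDR of 0.01, 1 with a 50 kb window and 0 with a 10 kb window. Of 21 recomputed totals 17 stayed within 1.5 times their main value. No paired analysis was possible because the IgG samples were not analysed here and no test between groups was made. With no read counts, a place without a peak cannot be told from one with too few reads.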
